A study of Homo sapiens with 6 samples.

Results

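The Kruppel-like transcription factors were examined in T24 bladder cancer cells overexpressing RNF112, a RING-type E3 ubiquitin ligase. The members were the 10 genes named KLF2, KLF3, KLF4, KLF6, KLF7, KLF9, KLF10, KLF11, KLF13 and KLF16, matched by symbol, and all 10 were present among the 23152 genes of the count table. KLF5 was kept apart and is given only for comparison. There were 6 samples, 3 labelled vector and 3 labelled oeRNF112, all of the established human urinary bladder carcinoma line T24. For this line the study gives RPMI medium with serum and penicillin/streptomycin. The study's methods describe transfection with plasmids, among them one for Flag-tagged RNF112, and also a stable T24 line made with Flag-RNF112 lentivirus and puromycin, without saying which of these was sequenced, while the treatment text of all 6 samples names siRNA. The RNF112 counts given below follow the oeRNF112 label, with far more reads than in vector. Which construct was used, and why siRNA is named, could not be settled. No label ties the replicates to separate cultures or days, so p-values measure only the spread between these samples.

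Each library held between 40029547 and 41259569 counted reads, and 3 reads, the limit that a count of 0 allows, corresponded to a CPM of 0.0727 to 0.0749. These limits cover counting error only. RNF112 itself had 27, 19 and 24 counts with vector and 29753, 36963 and 31712 with oeRNF112, which may include reads from the introduced construct. The samples of a group were unequally alike. The chi-square of the gene counts per degree of freedom was 17.8 between vector replicates 1 and 3 and 59.5 between vector replicates 2 and 3, whereas it was 56.6 between vector replicate 2 and oeRNF112 replicate 1. Among epithelial markers of the line, KRT7, KRT8 and KRT18 had at least 31265 counts in every sample, while CDH1 had at most 1, KRT20 at most 2 and UPK2 at most 7. The library of oeRNF112 replicate 1 stood apart for some leukocyte markers and not for others. It had 97 counts of LYZ against 2 to 8 in the other 5 samples, and 15 of CSF1R against at most 4. For ITGAM it had 11 against at most 7, a small difference at such low counts. In contrast, this library had 57 counts of CD14 against 53 to 91 in the other 5, and 33 of PTPRC against 24 to 54. For LAPTM5 it had 215 counts, against 108 and 125 in oeRNF112 replicates 2 and 3 and 231 to 293 in vector. Without this library KLF2, KLF6 and KLF10 were still called and KLF11 was not. RNA was measured in bulk, so a change in the number of cells of a kind and a change in RNA per cell cannot be told apart.

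Kruppel-like factors bind GC-rich and CACCC-type sites through zinc fingers at the C terminus, and the less conserved N terminus decides whether a member activates or represses. KLF2, KLF4, KLF6 and KLF7 are mostly described as activators, KLF3 as a repressor that recruits CtBP, and KLF9, KLF10, KLF11, KLF13 and KLF16 as factors that recruit the SIN3A corepressor. In epithelia the family is known for balancing proliferation against differentiation. Several members, KLF2, KLF4, KLF6 and KLF10 among them, are quickly induced genes with short-lived transcripts.

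The promoters of the members whose transcripts rose most, KLF2, KLF6 and KLF11, are shown beside that of KLF9, whose fitted change was nearest to 0. The sequences run 5′ to 3′ on the coding strand, from 250 bases before to 50 after an annotated RefSeq start, in the build GRCh38.p14. They lie at chr19:16324576-16324875 on the plus strand for KLF2, at chr10:3785160-3785459 on the minus strand for KLF6, at chr2:10043971-10044270 on the plus strand for the downstream of the KLF11 starts, and at chr9:70414608-70414907 on the minus strand for KLF9. Capitals mark every match, on either strand, to the GC box (GGGCGG), the CACCC box (CCACCC), the E-box bound by MYC (CACGTG), the cAMP response element (TGACGTCA), the AP-1 site (TGAGTCA), the CCAAT box (CCAAT), the TATA box (TATAAA or TATATA), the MEF2 site, the CArG box and the kappaB site.
KLF2: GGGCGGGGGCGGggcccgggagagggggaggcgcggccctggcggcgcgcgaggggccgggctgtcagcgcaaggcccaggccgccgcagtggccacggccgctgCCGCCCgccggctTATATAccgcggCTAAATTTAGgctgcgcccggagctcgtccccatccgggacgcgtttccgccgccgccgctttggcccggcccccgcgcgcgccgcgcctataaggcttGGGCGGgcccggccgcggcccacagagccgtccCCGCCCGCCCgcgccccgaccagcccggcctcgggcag
KLF6: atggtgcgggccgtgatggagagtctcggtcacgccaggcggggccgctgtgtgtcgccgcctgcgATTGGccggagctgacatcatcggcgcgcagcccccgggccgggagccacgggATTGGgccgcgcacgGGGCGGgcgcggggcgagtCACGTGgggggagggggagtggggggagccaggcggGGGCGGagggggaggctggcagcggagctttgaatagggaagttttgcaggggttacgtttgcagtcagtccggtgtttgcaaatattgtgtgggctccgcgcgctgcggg
KLF11: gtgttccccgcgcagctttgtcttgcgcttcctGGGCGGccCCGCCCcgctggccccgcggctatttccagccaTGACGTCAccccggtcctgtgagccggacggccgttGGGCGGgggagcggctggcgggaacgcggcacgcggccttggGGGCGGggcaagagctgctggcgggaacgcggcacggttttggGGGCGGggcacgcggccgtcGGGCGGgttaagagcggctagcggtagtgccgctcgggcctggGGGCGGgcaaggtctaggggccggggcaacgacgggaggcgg
KLF9: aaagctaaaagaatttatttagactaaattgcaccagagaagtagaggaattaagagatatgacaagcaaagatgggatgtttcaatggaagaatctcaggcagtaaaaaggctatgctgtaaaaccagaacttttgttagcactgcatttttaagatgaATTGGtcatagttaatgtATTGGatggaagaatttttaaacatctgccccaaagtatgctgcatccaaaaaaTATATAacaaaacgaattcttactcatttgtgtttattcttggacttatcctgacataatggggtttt

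The windows differed in composition and in motifs. GC made up 80.7% of the KLF2 window, 70.7% of the KLF6 window, 75.3% of this KLF11 window and 32.7% of the KLF9 window, against a median of 58.7% over 35116 promoters. Of the 10 members, 8 had 12 windows between them in the table, and KLF3 and KLF10 had none. Some members had several windows, 4 for KLF7 and 2 for KLF11, so matches are counted per window, as they are for all promoters. GC boxes were found in 8 of the 12 windows, against 45.0% of all promoters, and not in that of KLF9 or in 3 of the 4 of KLF7. The E-box was found in 4 of the 12, 1 each of KLF4, KLF6, KLF7 and KLF11, and in 7.26% of all promoters, with its first base at -97 from the start in KLF6. KLF2 held the only MEF2 match, at -120, just downstream of a TATA box at -132, and 2.99% of all promoters held a MEF2 match. A cAMP response element stood at -176 in the KLF11 window shown and in none of the other 11, against 1.85% of all promoters. CACCC boxes were present in 2 windows (34.3% of all promoters), CCAAT boxes in 5 (34.6%), TATA boxes in 2 (13.7%) and a CArG box in 1 (1.29%). AP-1 (4.95%) and kappaB (11.3%) matches were present in 0 of the 12. No matches to different motifs overlapped in the windows shown. These matches describe letters only and were not tested as binding sites.

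Overexpression of RNF112 was accompanied by higher levels of KLF2, KLF6, KLF11 and KLF10 transcripts, and no member was called lower. The counts were compared with edgeR's quasi-likelihood test on 14467 genes, with Benjamini-Hochberg adjustment over all of them and a call at an adjusted p under 0.05. All 10 members passed the filter on low counts, with at least 270 counts in each sample. Of these, 4 were called higher and 0 lower, beside 9.97% of all genes tested called higher and 8.14% called lower. At an unadjusted p under 0.05, 8 members were higher and 0 lower, beside 17.1% and 16% of all genes tested. DESeq2 called 4 higher and 0 lower, beside 10.7% and 9.53% of the 15514 genes it gave an adjusted p. Scaling to library totals without TMM gave 6 members higher and 0 lower, beside 2020 genes higher and 659 lower in all, in place of 1442 and 1178. The median log2 fold change of the 10 members was 0.35, against 0.0027 over all genes tested. Measured as CPM (counts scaled to the library total after TMM normalization), 6 members had separate groups, the lowest oeRNF112 value lying above the highest vector value, beside 18.9% of all genes tested. The called changes were moderate: 0 of the 10 members reached a log2 fold change of 1.

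**Figure D1:**
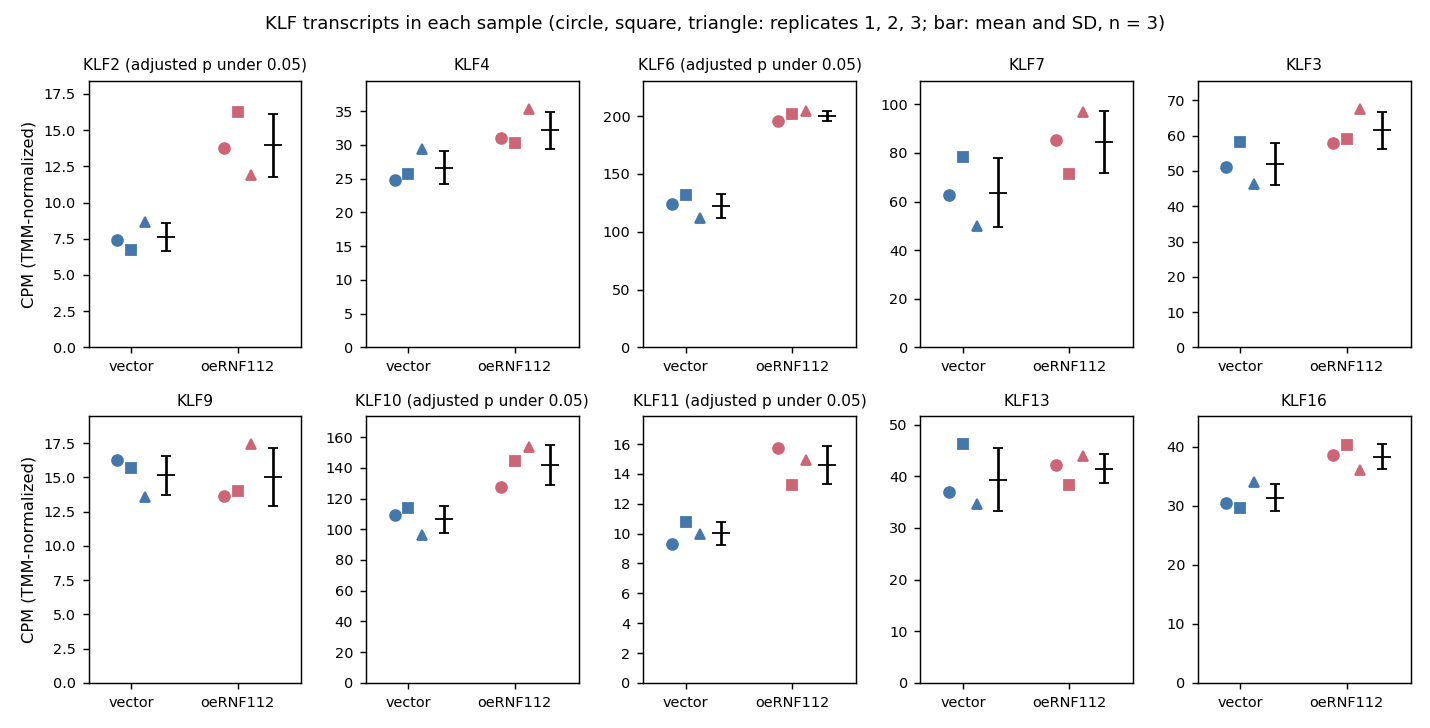
TMM-normalized CPM of the 10 KLF transcripts in each of the 6 samples, with vector in blue and oeRNF112 in red, and the mean and SD of each group (n = 3) as a bar. KLF2, KLF4, KLF6, KLF10, KLF11 and KLF16 show no overlap between the groups, whereas the points of KLF3, KLF7, KLF9 and KLF13 overlap.

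Among the activators, KLF6 gave the smallest p. KLF6 is a broadly expressed factor described as a tumor suppressor that can activate CDKN1A. Its counts were 4920, 5279 and 4303 with vector and 8101, 8281 and 8640 with oeRNF112. The 3 oeRNF112 samples were nearly alike, with a CPM of 200.3 ± 4.41 (SD, n = 3), and stood well above the vector samples at 122.6 ± 10.35 (SD, n = 3). The log2 fold change was 0.71 (95% interval 0.51 to 0.90, SE 0.088, edgeR adjusted p = 0.00093), a 1.63-fold rise. The call held in all 15 alternative fits, with log2 fold changes from 0.65 to 0.80.

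KLF2, known for quiescence of lymphocytes and for the response of endothelium to blood flow, showed the largest fold among the members. It had 294, 270 and 334 counts with vector and 570, 667 and 503 with oeRNF112. The lowest oeRNF112 sample, replicate 3, lay above the highest vector sample, also replicate 3. Mean CPM went from 7.61 ± 0.965 to 13.95 ± 2.18 (SD, n = 3 each), and the log2 fold change was 0.87 (95% interval 0.54 to 1.21, SE 0.149, edgeR adjusted p = 0.0041), or 1.83-fold. The sampling error of its smallest count, 6.09%, was below the spread of 12.7% and 15.6% (coefficient of variation) between the vector and the oeRNF112 samples. KLF2 was called in all 15 alternative fits. Since KLF2 is best known from endothelium, markers of that cell type were counted: of 8, 7 were in the table and 2 passed the filter, with a summed CPM of 1.19 to 1.71 in vector and 2.85 to 3.94 in oeRNF112. PECAM1, CDH5, VWF and KDR had at most 11 counts in any sample, against at least 270 for KLF2. ESAM, an adhesion molecule of endothelium, had 9 to 23 counts in vector and 64 to 94 in oeRNF112 and was called higher. TIE1, the other endothelial marker that passed the filter, had 19, 19 and 34 counts in vector and 34, 51 and 48 in oeRNF112. It was fitted higher as well, at a log2 fold change of 0.80, and was not called (edgeR adjusted p = 0.128). The part of endothelial cells in the KLF2 result was not tested.

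KLF4 and KLF7 did not pass the adjusted threshold. KLF4, a factor of epithelial barrier formation and of reprogramming to pluripotency, had 978, 1028 and 1133 counts in vector and 1286, 1242 and 1495 in oeRNF112. The groups did not overlap, yet the highest vector sample and the lowest oeRNF112 sample differed by little, with CPM values of 29.36 and 30.22. The log2 fold change was 0.28 (SE 0.107, edgeR adjusted p = 0.102). KLF4 was called in 4 of the 15 alternative fits. These were scaling to plain library totals (adjusted p = 0.0429) and limma on RPKM (adjusted p from 0.0413 to 0.0481). It was called in 0 of the 6 fits with 1 sample left out. KLF7, known from axon growth and neuronal development, had 2476, 3131 and 1933 counts in vector and 3532, 2926 and 4100 in oeRNF112. Vector replicate 2 lay above oeRNF112 replicate 2, and the highest vector CPM was 1.56 times the lowest, the widest range among the members. Its log2 fold change was 0.41 (95% interval 0.045 to 0.77, SE 0.162, edgeR adjusted p = 0.111), almost the same size as that of KLF10 but with a wider interval. With 1 sample left out, KLF7 was called in 1 of 6 fits. Its log2 fold change was 0.58 (adjusted p = 0.0106) without vector replicate 2, 0.26 (adjusted p = 0.262) without vector replicate 3 and 0.30 (adjusted p = 0.309) without oeRNF112 replicate 3.

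Among the members that recruit SIN3A, the transcripts of KLF10 and KLF11, both described as induced by TGF-beta, were raised. KLF11 had 367, 431 and 385 counts in vector and 652, 544 and 631 in oeRNF112, with no overlap between the groups. Mean CPM was 10.01 ± 0.750 and 14.62 ± 1.27 (SD, n = 3 each), and the log2 fold change was 0.55 (95% interval 0.29 to 0.81, SE 0.117, edgeR adjusted p = 0.0118). KLF10 had 4311, 4555 and 3727 counts in vector and 5293, 5928 and 6494 in oeRNF112. All 3 oeRNF112 samples were above the vector samples, with mean CPM values of 106.5 ± 8.92 and 141.8 ± 13.01 (SD, n = 3 each) and a log2 fold change of 0.41 (95% interval 0.19 to 0.64, SE 0.10, edgeR adjusted p = 0.0204). Both calls were less firm than those of KLF2 and KLF6. With 1 sample left out at a time, KLF11 missed the threshold without vector replicate 1 (adjusted p = 0.065) and without oeRNF112 replicate 1 (adjusted p = 0.0614). KLF10 missed it without vector replicate 1 (adjusted p = 0.0726), vector replicate 3 (adjusted p = 0.0527) or oeRNF112 replicate 3 (adjusted p = 0.077).

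The other 3 members of this kind were not called. KLF16, which was first described as a regulator of dopamine receptor genes, had 1206, 1187 and 1314 counts in vector and 1599, 1660 and 1529 in oeRNF112. The groups were separate, at CPM values of up to 34.05 in vector and from 36.11 in oeRNF112, and the log2 fold change was 0.29 (SE 0.096, edgeR adjusted p = 0.064). KLF16 was called in 5 of the 15 alternative fits. These were library totals (adjusted p = 0.0187), limma on RPKM (adjusted p from 0.0147 to 0.0168) and the fit without vector replicate 3 (adjusted p = 0.0431). KLF13, known as an activator of the chemokine gene CCL5 in T cells, had 1466, 1850 and 1339 counts against 1749, 1579 and 1860. Vector replicate 2 nearly reached the highest oeRNF112 count, and on the CPM scale it was the highest of the 6 samples. The log2 fold change was 0.08 (95% interval -0.19 to 0.34, edgeR adjusted p = 0.686). KLF9, which responds to glucocorticoid and thyroid hormones, had 644, 626 and 523 counts against 565, 575 and 739. Its lowest and highest values on the CPM scale were vector replicate 3 and oeRNF112 replicate 3. The log2 fold change was -0.01 (95% interval -0.30 to 0.28, edgeR adjusted p = 0.957), and its sign turned with library totals, at 0.08.

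KLF3, the member that recruits CtBP and is known from adipocytes and erythroid cells, had 2023, 2326 and 1790 counts in vector and 2397, 2432 and 2859 in oeRNF112. On the CPM scale vector replicate 2, at 58.16, lay just above oeRNF112 replicate 1, at 57.83, so that the groups overlapped. The log2 fold change was 0.25 (95% interval 0.0027 to 0.49, SE 0.109, edgeR adjusted p = 0.147). KLF3 was called in 1 of the 15 alternative fits, without vector replicate 2, at 0.33 (adjusted p = 0.0459). It was at 0.17 both without vector replicate 3 (adjusted p = 0.313) and without oeRNF112 replicate 3 (adjusted p = 0.409). The 95% intervals given for single genes are not adjusted for the number of genes tested.

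**Figure D2:**
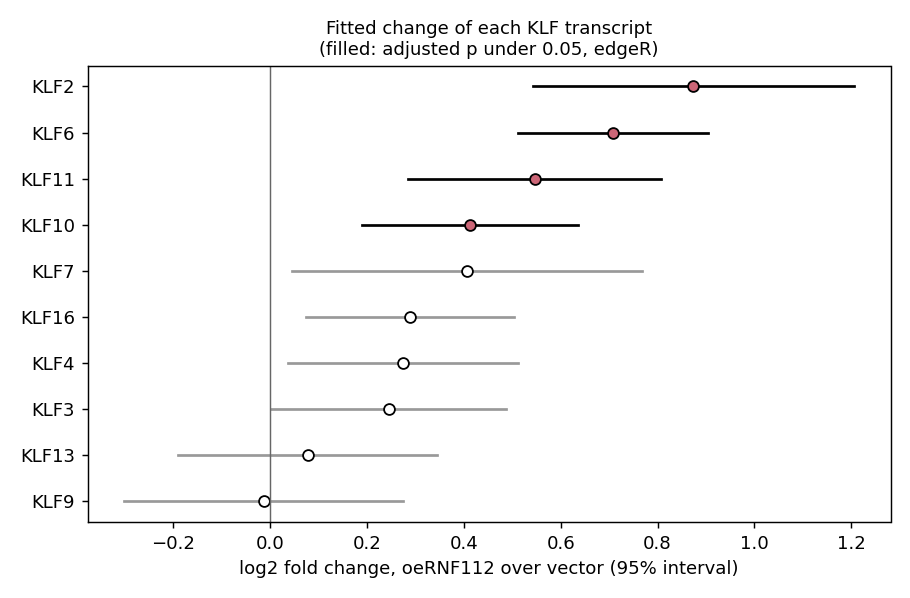
Fitted log2 fold change of each KLF transcript, oeRNF112 over vector, with its 95% interval from edgeR, ordered by size. Filled points mark the 4 members with an adjusted p under 0.05, from 0.41 for KLF10 to 0.87 for KLF2, and the intervals of KLF9 and KLF13 span 0.

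The sample in which a member was highest was not the same throughout. In vector, replicate 2 had the highest CPM for KLF3, KLF6, KLF7, KLF10, KLF11 and KLF13, whereas replicate 3 was the highest for KLF2, KLF4 and KLF16. Over the 10 members, the median log2 difference from the mean of vector came to -0.02, 0.10 and -0.14 for the vector replicates and 0.28, 0.28 and 0.47 for the oeRNF112 replicates. The 3 oeRNF112 medians thus lay above the 3 vector medians. Without vector replicate 2 the number of members called was 6, beside 3387 of all genes called in either direction, and without vector replicate 1 it was 2, beside 1061 of all genes, in place of 2620 with the 6 samples.

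**Figure D3:**
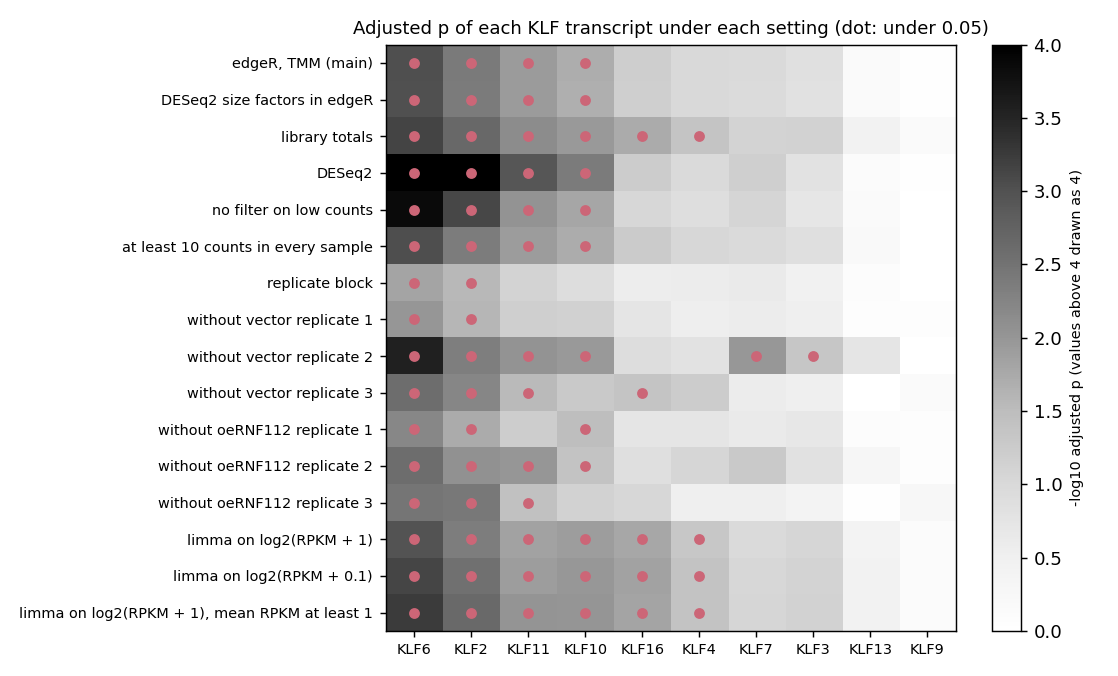
Adjusted p of each KLF transcript (columns, ordered by the adjusted p reported here) under edgeR and 15 alternative fits (lines), shaded by -log10 of the adjusted p, with a dot where it is under 0.05. KLF6 and KLF2 carry a dot in every line, KLF11 in 12 and KLF10 in 11 of the 15 alternatives, and KLF9 and KLF13 in 0.

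To compare the members with one another, their levels were taken per length, as the deposited RPKM (reads per kilobase, scaled to the column total without TMM). KLF10 and KLF6 were the most abundant members in both groups. In vector, RPKM was 32.34 ± 3.17 for KLF10 and 25.88 ± 2.58 for KLF6 (SD, n = 3 each), and the 3 KLF10 values lay above the 3 KLF6 values. In oeRNF112 the levels were 45.92 ± 4.49 and 45.07 ± 1.36, and the ranges overlapped. The ratio of KLF6 to KLF10 within a sample, which does not depend on the scaling, was 0.793, 0.805 and 0.802 in vector and 1.06, 0.971 and 0.924 in oeRNF112. KLF6 made up 24.4% to 25.7% of the summed RPKM of the 10 members in vector and 29.5% to 30.9% in oeRNF112, while KLF10 made up 30.4% to 32.5% and 29% to 31.9%. These ratios and shares were looked at after the values of both genes were known, and no test was run on them.

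Below these, KLF16 followed in both groups, at an RPKM of 10.47 ± 0.659 in vector and 13.65 ± 0.541 in oeRNF112 (SD, n = 3 each). KLF3 and KLF4 both stood at 8.47 in vector, and their ranges overlapped in both groups. KLF13 came next, at 5.34 in vector and 6.01 in oeRNF112. KLF7, KLF9, KLF2 and KLF11 had the lowest means in vector, at 3.57, 2.82, 2.61 and 2.24, and each overlapped its neighbour in this order. In oeRNF112, KLF2 stood at 5.10 ± 0.710, beside KLF7 at 5.05 ± 0.851, and above KLF11 at 3.49 and KLF9 at 2.99. KLF9 had the lowest mean of the 10 in oeRNF112, though its range overlapped that of KLF11. The ratio of KLF2 to KLF4 was 0.283 to 0.324 in vector and 0.362 to 0.579 in oeRNF112. The summed RPKM of the 10 members was 100.9, 110.5 and 95.24 in vector and 142.7, 145.9 and 158.1 in oeRNF112, without overlap. RPKM separated the groups of KLF3 as well, from 7.48 to 9.68 in vector and from 10.08 to 11.92 in oeRNF112, unlike the TMM-normalized CPM.

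**Figure D4:**
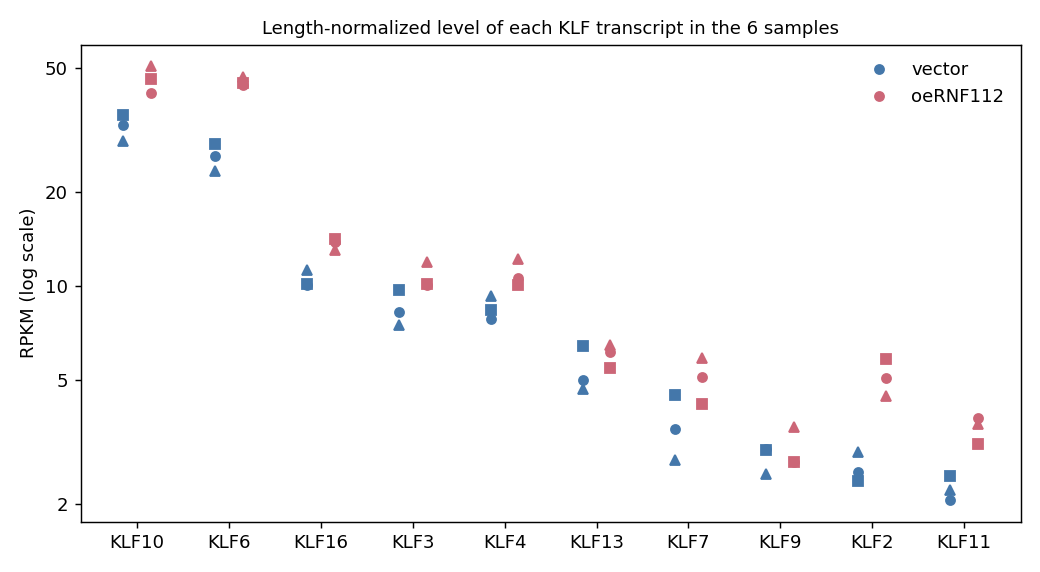
Deposited RPKM of the 10 KLF transcripts (log scale) in the 3 vector (blue) and 3 oeRNF112 (red) samples, ordered by the vector mean, with circle, square and triangle for replicates 1, 2 and 3. KLF10 and KLF6 lie between 23.25 and 50.44, and the other 8 members lie below 15.

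The length behind these values matters for KLF7. The length that count and RPKM imply was 17293 bases for KLF7, which is 2.07 times its longest coding GENCODE transcript of 8362 bases, whereas the ratio was between 0.872 and 1.40 for the other 9 members. With the longest coding transcript as the length, KLF7 was at 7.39 in vector in place of 3.57, and moved from 7th to 6th of the 10. In oeRNF112 it was then at 10.4, above KLF2 at 7.13, in place of beside it. KLF2 and KLF9 changed places in vector, at 3.65 and 2.84, and KLF9 kept the lowest mean in oeRNF112. The same change of length put KLF6, at 44.4, above KLF10 in oeRNF112, while KLF10 remained the highest in vector.

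In the rest of the KLF and SP family, 15 of 16 listed genes were in the table, and 11 passed the filter. Of these, 2 were called higher and 0 lower, beside 9.97% and 8.14% of all genes tested. At an unadjusted p under 0.05, 2 were higher and 0 lower, beside 17.1% and 16% of all genes tested. DESeq2 also called 2 higher and 0 lower, beside 10.7% and 9.53%. SP6, a factor of tooth and skin development, had 49, 52 and 65 counts in vector and 108, 116 and 138 in oeRNF112, a log2 fold change of 1.04 (SE 0.207, edgeR adjusted p = 0.0086). KLF5, which supports growth of basal epithelial cells, had 1770, 1680 and 1548 counts in vector and 2013, 2210 and 2545 in oeRNF112, without overlap, and a log2 fold change of 0.36 (edgeR adjusted p = 0.0383). With 1 sample left out, the call of KLF5 was lost in 5 of 6 fits, with adjusted p from 0.0531 to 0.149, and held without vector replicate 2 (adjusted p = 0.0478). KLF12, a relative of KLF3 that recruits CtBP as well, had 1239, 1726 and 994 counts against 1427, 1136 and 1728 and a log2 fold change of 0.04 (edgeR adjusted p = 0.914). SP1 and SP3, ubiquitous relatives that share the GC box as a target, were not called. SP1 had 5458, 6545 and 4393 counts in vector and 5350, 4323 and 6135 in oeRNF112, and SP3 had 3841, 4533 and 3089 against 4247, 3987 and 5038. Vector replicate 2 was the highest and vector replicate 3 the lowest vector sample for KLF12, SP1 and SP3, as for KLF3 and KLF7.

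Transcripts of genes whose proteins act with or on the family were not called by edgeR, and the proteins were not measured. Of 11 cofactors, which include the CtBP and SIN3 corepressors, the histone deacetylases HDAC1 and HDAC2 and the coactivators EP300 and CREBBP, 0 were called by edgeR in either direction, and DESeq2 called 0. At an unadjusted p under 0.05, 1 was lower and 0 higher. Over all genes tested, 16% were lower and 17.1% higher at that level, and edgeR called 8.14% lower and 9.97% higher. Of 8 ubiquitin ligases described to act on KLF proteins, among them WWP1 and FBXW7, 0 were called by either tool, with 1 higher and 1 lower at an unadjusted p under 0.05. The ERK5 and MEF2 pathway activates KLF2 and KLF4 in endothelium, and its list also holds histone deacetylase genes. Of its 10 tested genes, edgeR called 0 and DESeq2 called 1 lower. At an unadjusted p under 0.05, 3 were lower and 0 higher. These 3 were HDAC4, HDAC7 and MAP2K5, with log2 fold changes of -0.69, -0.26 and -0.23. RNF112 protein and ubiquitination were not measured in these files.

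Other lists around the family moved in part, beside 9.97% of all genes tested called higher and 8.14% called lower. Of 7 tested genes in the list of the glucocorticoid receptor and its targets, 4 were higher and 0 lower. These were ERRFI1, SGK1, TSC22D3 and FKBP5, with log2 fold changes of 0.88, 0.79, 0.64 and 0.30, whereas the receptor gene NR3C1 was not called. KLF9, kept among the members, is itself described as a target of this receptor and was not called either. The call of FKBP5 (adjusted p = 0.0473) was lost in each of the 6 fits with 1 sample left out.

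Of 15 tested genes described as targets of KLF proteins, 7 were higher and 2 lower, beside the shares of all genes given above. CDKN1A, the cell cycle inhibitor p21 and a target of KLF4 and KLF6, had 2505, 2278 and 2614 counts in vector and 4499, 4886 and 4766 in oeRNF112. The groups were far apart, with a log2 fold change of 0.85 (SE 0.093, edgeR adjusted p = 0.00046). THBD, the thrombomodulin gene induced by KLF2 in endothelium, had 322, 350 and 350 counts against 641, 792 and 835, a log2 fold change of 1.07 (SE 0.125, edgeR adjusted p = 0.00066). ODC1 rose by 0.77 and BMP4 by 2.71 on the log2 scale, the latter from at most 5 counts in vector to between 24 and 34 in oeRNF112. The 2 lower genes were PLAU, the urokinase gene, and FASN, the fatty acid synthase gene, with log2 fold changes of -0.34 and -0.45. In this list 0 genes were lower with library totals, where 7 were higher, with the replicate block, where 5 were higher, and with limma on RPKM, where 5 to 7 were higher. The list holds genes described in several tissues and does not separate those that KLF proteins activate from those that they repress. Its counts of higher and lower genes therefore do not measure KLF activity. Whether a KLF protein acts on these genes in T24 cells was not measured.

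Of 16 immediate-early genes, a class to which several members belong, 6 were higher and 1 lower, beside 9.97% and 8.14% of all genes tested. NR4A1, DUSP1 and NR4A3 were higher, with log2 fold changes of 1.21, 0.82 and 2.27. The change of NR4A3 rests on few reads, with 7, 12 and 9 counts in vector and 51, 54 and 39 in oeRNF112. FOS was lower, from 1194, 1512 and 1610 counts in vector to 434, 367 and 714 in oeRNF112, a log2 fold change of -1.60 (SE 0.217, edgeR adjusted p = 0.0014). Their part in the rise of the KLF transcripts was not tested. The marker lists stand beside the same shares. Among them, the leukocyte list had 5 tested genes with 1 higher (CD68) and 1 lower (LAPTM5), and the fibroblast list 4 with 1 lower (ACTA2). The epithelial list had 9 with 1 higher (EPCAM) and 2 lower (KRT7 and KRT18). PTPRC, the common leukocyte antigen, had 54, 37 and 40 counts in vector and 33, 24 and 26 in oeRNF112 and was not called, while CD68, which tumor cells can express too, had 987, 870 and 955 against 2125, 2645 and 2103. The summed CPM of the fibroblast list was 37.92 to 46.5 in vector and 30.26 to 35.8 in oeRNF112. That of the leukocyte list was 32.34 to 35.89 and 55.43 to 69.82. CD68 made up most of the leukocyte sum, with a mean CPM of 23.82 in vector and 55.1 in oeRNF112. It was the only 1 of the 5 tested leukocyte genes fitted higher, and the mean CPM of LAPTM5 went from 6.615 to 3.589. The part of these cell types in the KLF result was not tested.

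By the likeness of its profile over the 6 samples, measured as the root mean square difference of log2 CPM centred on the vector mean, KLF6 was closest to MME, at 0.0406, followed by GFPT1, at 0.0446, and PARP9, at 0.0465, among all genes tested other than the members. MME, a cell-surface peptidase, had 5437, 5487 and 4396 counts in vector and 8245, 8805 and 9146 in oeRNF112. GFPT1 encodes the first enzyme of the hexosamine pathway, and PARP9 is an interferon-responsive gene. This likeness describes levels in 6 samples of 2 groups only.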

How the data were processed

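Libraries of 3 vector and 3 oeRNF112 T24 samples were made with a stranded mRNA kit. The authors deposited raw read counts per gene and RPKM values. Their processing notes name Trimmomatic 0.36, featureCounts, Subread 1.5.1 and GRCh38, and the annotation and the strand setting of the counting are not given in the sources used here. For 20637 of 20637 genes with at least 2 values above 0, count, RPKM and column total gave 1 length within 0.1%.

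Counts were tested with edgeR 4.0.16 in R 4.3.3 (filter on low counts, TMM factors from 0.957 to 1.049, quasi-likelihood test, Benjamini-Hochberg adjustment over 14467 genes). Alternatives used DESeq2 1.42.0, limma 3.58.1 on log2(RPKM + 1) or log2(RPKM + 0.1), other size factors and filters, a replicate block and each sample left out. The longest transcript as gene length was added after seeing the data. All alternatives are compared in the closing section. The test scripts were checked on data simulated from these libraries. No pair of samples held the same library. The result of 1 related gene list is not reported here.

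The members and gene lists were chosen with earlier results of these data known. Named genes are RNF112, the members, KLF5, KLF12, up to 4 called genes with the smallest p per related list, and the 3 genes most like the member with the smallest p. HDAC1, HDAC2, HDAC4, HDAC7, MAP2K5, EP300, CREBBP, WWP1, FBXW7, NR3C1, SP1, SP3, PLAU, FASN and the marker genes were named without regard to this rule, after their values were seen. Promoter sequences came from RefSeq (GRCh38.p14), and no protein sequences were used. The genes shown there were chosen after their fold changes were seen.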

Additional observations from a re-analysis of the deposited data

How the results depend on the processing

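The number of members called was 4 and was 4 to 6 with other size factors, library totals, DESeq2, other filters on low counts and limma on RPKM. With the replicate block it was 2 (KLF2 and KLF6), and the related lists had 15 called genes in place of 23. No label pairs the samples by replicate number. Deviations of equal numbers correlated at -0.116, -0.363 and -0.296, which cannot show whether samples of equal number were prepared together. The block left 876 of 2620 calls over all genes. With each sample left out in turn, omitting vector replicate 1 gave 2 members and omitting vector replicate 2 gave 6, the lowest and highest numbers. The related lists then ranged from 15 to 25 called genes, for the same omissions, and all genes from 1061 to 3387. A log2 fold change of at least 1 left 0 members, 9 related genes and 614 genes in all, by construction. Library totals gave 2020 higher and 659 lower genes (1442 and 1178 with TMM) and moved the median of all genes from 0.0027 to 0.0962. The median of the members stayed between 0.31 and 0.44. KLF9 turned above 0 with library totals (0.08156) and limma on RPKM (0.05719 with a pseudocount of 1, also after a filter at a mean RPKM of 1, and 0.07334 with 0.1), and it went from -0.1346 to 0.05389 with samples left out. KLF13 went from -0.00322 to 0.208 and KLF12 from -0.1163 to 0.2625 there. The cause of these changes was not tested. The ratio of the summed levels per length, 1.457, was 1.537 as TPM and 1.455 with the longest transcript.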

Other observations

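Several KLF genes outside the members had few reads. KLF15, a factor of liver and muscle metabolism, had 1, 2 and 3 counts with vector and 6, 10 and 10 with oeRNF112, and it did not pass the filter on low counts. KLF17 had 21, 12 and 18 counts in vector and 11, 12 and 8 in oeRNF112, with a log2 fold change of -0.79 (edgeR adjusted p = 0.198). KLF8 had between 5 and 15 counts in each sample. KLF1, KLF14 and KLF18 had at most 5 counts in any sample. The antisense gene KLF3-AS1 and the divergent gene KLF9-DT had at most 6 and 7 counts, against at least 1790 for KLF3 and 523 for KLF9. Strand use in the counting is not stated, so reads of these genes and their partners may be mixed. These genes were named after their values were seen.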
